A study of Mus musculus with 36 samples.

Results

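The insulin-like growth factor (IGF) binding proteins Igfbp1 to Igfbp7, the pappalysin proteases Pappa and Pappa2, and Stc2, the secreted inhibitor of pappalysins, were followed in mouse liver. They were chosen by gene symbol in the probe annotation of the arrays, with earlier results of these data known. Among the log2 values known when they were chosen was the large genotype-by-fasting difference of Pappa2. Pappa2 is therefore described without a test throughout, and counts of calls that include it are marked. The symbols gave 10 genes and 16 probes out of 37325 genes and 56605 probes. RNA had been measured in livers of 36 male C57Bl/6J mice, 1 array each, in 6 groups of 6. CTRL mice were the controls, and AAKO mice lacked adipose triglyceride lipase (ATGL, encoded by Pnpla2), which starts the release of fatty acids from stored fat, in white adipose tissue. The driver of the deletion is not given in the sources used here, and because the deletion lies in another tissue, the liver RNA does not check it. Mice of each genotype were free-fed, fasted for 24 h, or kept on food and dosed with CL316243, a beta 3 adrenergic agonist, at 3 mg/kg by gavage at Zeitgeber time 10. All were killed at Zeitgeber time 16. The fed groups came from experiment 2 and the fasted and CL316243 groups from experiment 1. In each contrast with fed mice, condition and experiment therefore cannot be told apart, whereas contrasts of genotypes, and of fasting with CL316243, lay within 1 experiment. A gavage is given in the labels for the CL316243 groups only. Beyond a replicate number the labels do not describe the animals, so p-values measure the spread between these samples.

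IGF binding proteins are secreted carriers that hold IGFs in blood and tissue and limit their access to the IGF receptor. IGFBP1 comes from hepatocytes, where insulin represses its gene through FoxO factors, and it is known for its rise in fasting. IGFBP3 carries most circulating IGF in a complex with the acid labile subunit (Igfals). Pappalysins free IGF by cutting its carriers, PAPPA mainly IGFBP4 and PAPPA2 mainly IGFBP3 and IGFBP5, and stanniocalcins such as STC2 block that cleavage.

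Because Pappa2 gave the largest differences among these genes, and its probes did not all detect it, the first 30 of the 60 bases of its 4 probes are given. Probes 1 and 2 were designed to one RefSeq transcript and probes 3 and 4 to another, predicted one. Their positions in the files, on mm9 and the minus strand, were chr1:160641903-160641962, chr1:160762959-160764912, chr1:160898308-160898367 and chr1:160897998-160898057. No mm9 annotation was used here, so exons and untranslated regions are not stated.
Pappa2 probe 1: cagtgaaaggggctgatctactgtattgta
Pappa2 probe 2: tttccctggtaacaggagaacctcattcaa
Pappa2 probe 3: acttgactttcaagtataggtgaatgtgtg
Pappa2 probe 4: ttcaatgcacttagtgaaaatccctcatca

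Igfbp1 and Igfbp3 are neighbours on chromosome 11, with probes 3.7 kb apart, and both changed with fasting. Their 250 bases before the transcription start are given from RefSeq, build GRCm38.p6. They lie at chr11:7197537-7197786 on the plus strand for Igfbp1 and at chr11:7213924-7214173 on the minus strand for Igfbp3. Capitals mark CAAAACA, the core of the insulin response element bound by FoxO factors.
Igfbp1: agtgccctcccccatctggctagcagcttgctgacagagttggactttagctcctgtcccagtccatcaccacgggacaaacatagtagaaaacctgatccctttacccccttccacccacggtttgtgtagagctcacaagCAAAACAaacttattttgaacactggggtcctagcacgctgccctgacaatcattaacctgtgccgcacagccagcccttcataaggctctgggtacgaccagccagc
Igfbp3: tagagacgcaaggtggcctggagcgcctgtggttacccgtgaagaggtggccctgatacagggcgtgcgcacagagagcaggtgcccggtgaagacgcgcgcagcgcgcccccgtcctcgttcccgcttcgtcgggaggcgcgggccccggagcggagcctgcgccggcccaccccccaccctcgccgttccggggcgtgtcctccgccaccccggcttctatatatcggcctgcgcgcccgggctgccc

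Promoter sequences were matched for 9 of the 10 genes, all but Pappa. CAAAACA began 108 bases before the Igfbp1 start and was not in the windows of the other 8 genes. On either strand, 5.56% of 32851 promoters of this length held it. The other motifs searched on both strands were the forkhead motif TGTTTAC (3.17% of promoters), the cAMP response element TGACGTCA (1.55%), the STAT motif TTCNNNGAA (7.02%) and the E-box CACGTG (6.02%). None of these overlapped CAAAACA in the Igfbp1 window. The E-box was found once, 142 bases before a start of Igfbp2, and the other motifs in none of the 9 genes. A match describes these letters and not binding.

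Each array had 33128 to 37200 probes with signal well above background. All 6 hepatocyte markers were measured in every group, with group means of the list between 8.01 and 8.32. Levels are log2 intensities after subtraction of each array's 75th percentile, so 0 is the brightness of that percentile. On the first principal component, which held 41.9% of the variance, the AAKO fasted arrays lay between 102.8 and 110.8. CTRL fasted arrays lay between 16.8 and 29.0, except replicate 2 at 81.3. Values without that array are given where results rest on it. A gene is said to be called, or to have risen or fallen, at a limma adjusted p under 0.05 over 24251 genes. All 10 genes passed the filter on dim probes, Stc2 only through AAKO fasted livers, Pappa only through AAKO CL316243 livers and Pappa2 only through AAKO fasted and AAKO CL316243 livers.

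Igfbp1 rose with fasting and with CL316243 in both genotypes and was higher in AAKO than in CTRL livers under both. Its probe lies at chr11:7102442-7102501 (mm9). CTRL fed livers had log2 levels of 2.43, 5.24, 2.31, 3.94, 0.84 and 2.69. CTRL fasted livers had 7.12, 8.82, 7.47, 7.14, 7.60 and 8.06. No fasted value reached down to a fed one, and the fed livers were spread over a much wider range. CTRL CL316243 livers had 5.46, 5.57, 3.35, 6.02, 5.33 and 5.90, so that 1 liver, replicate 3, lay within the fed range. Among AAKO livers, the fed had 3.91, 6.65, 5.03, 3.46, 7.46 and 5.89. The AAKO fasted livers had 9.62, 9.53, 9.49, 9.53, 9.62 and 9.53, the narrowest group for this gene (SD 0.05). After CL316243, AAKO livers had 8.50, 7.49, 7.47, 7.66, 8.48 and 6.35. The AAKO fasted group lay above every other array.

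Fasting raised Igfbp1 27.7-fold in CTRL (log2 difference 4.79 ± 0.58, SE, n = 6 each; limma adjusted p 5.57e-08) and 17.8-fold in AAKO (4.16 ± 0.58; adjusted p 2.29e-07). CL316243 against feeding gave 2.36 ± 0.58 in CTRL (adjusted p 0.00332) and 2.19 ± 0.59 in AAKO (adjusted p 0.00441). The call was lost within wash batch 1 for CTRL (1.81, adjusted p 0.2) and within wash batch 2 for AAKO (2.08, adjusted p 0.15). Fasted livers were also above CL316243 livers, by 2.43 ± 0.58 in CTRL (adjusted p 0.00125) and 1.97 ± 0.59 in AAKO (adjusted p 0.0046). Within single wash batches these last calls were lost in batch 1 for CTRL (2.07, adjusted p 0.101) and in both for AAKO (1.81 and 2.02, adjusted p 0.068 and 0.0706).

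Between genotypes Igfbp1 was 3.62-fold higher in AAKO when fasted (1.86 ± 0.58; limma adjusted p 0.0088) and 4.99-fold higher after CL316243 (2.32 ± 0.59; adjusted p 0.00361), with no overlap of the groups in either. Within wash batches 1 and 2 the fasted difference was 1.81 and 1.90 (adjusted p 0.105 and 0.0747), and the CL316243 difference 2.07 and 2.66 (adjusted p 0.0996 and 0.0845). Without CTRL fasted replicate 2 the fasted difference was 2.13 (adjusted p 0.0036). In the fed state the difference was 2.49 ± 0.58 and missed the threshold (adjusted p 0.108), with overlapping groups. It passed without CTRL fed replicate 2 (2.93, adjusted p 0.031) or without AAKO fed replicate 4 (2.94, adjusted p 0.0244). The genotype difference was not shown to depend on the condition: the fasting interaction was -0.64 ± 0.83 (adjusted p 0.6) and the CL316243 interaction -0.17 ± 0.83 (adjusted p 0.94). In AAKO fasted livers the probe lay only 0.55 to 0.90 log2 units under the brightest probe of its array, against 1.60 to 3.28 in CTRL fasted livers. No spot was marked as saturated, and whether the top of the signal range narrows this difference was not tested.

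**Figure D1:**
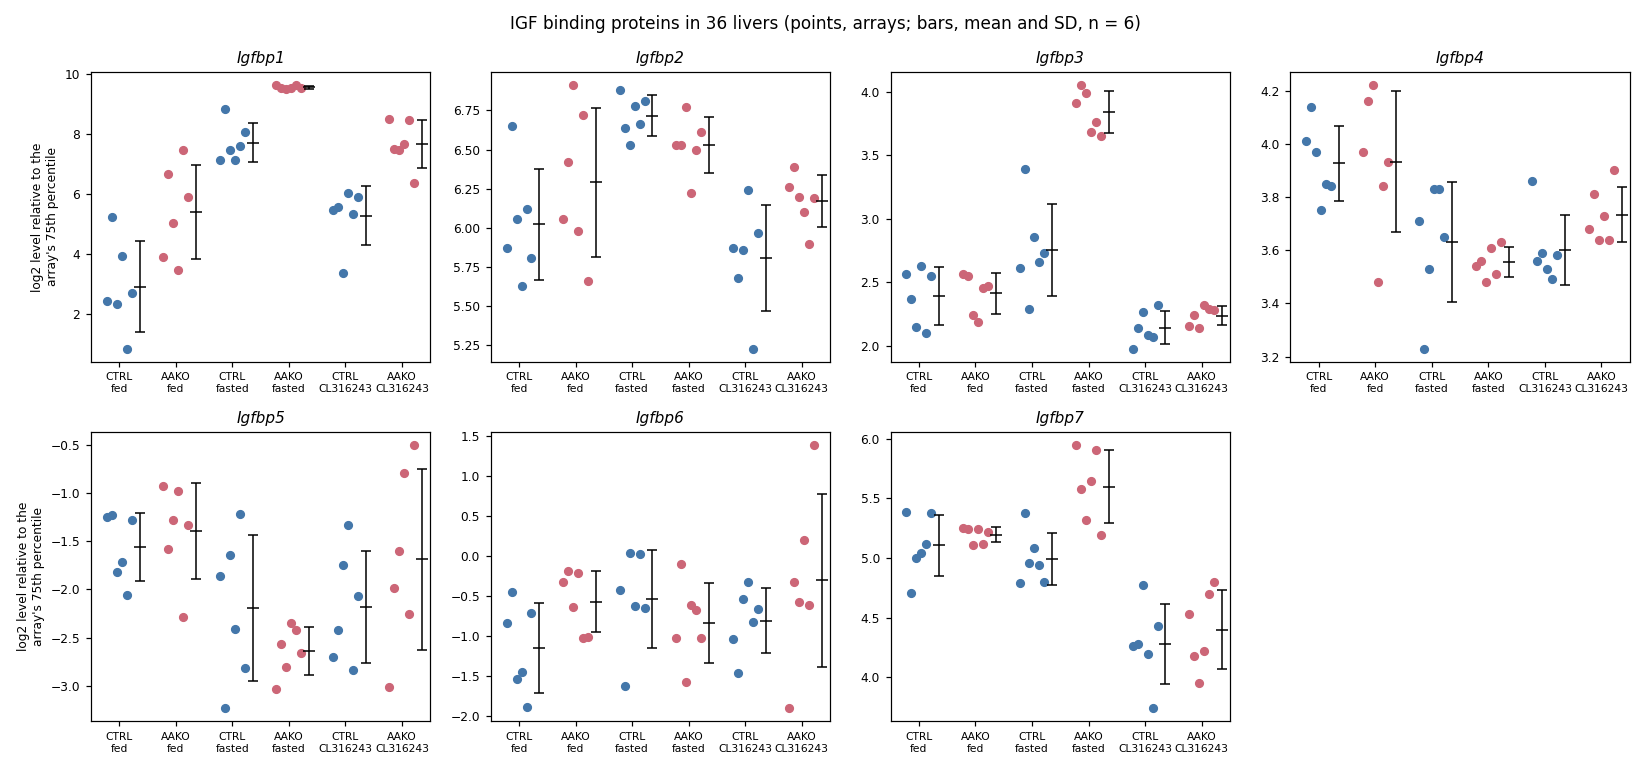
Log2 level of each IGF binding protein (vertical axis, log2 units over the array's 75th percentile) in each liver (points; blue, CTRL; red, AAKO) by group, with the mean and SD of 6 livers as black bars; each panel has its own scale. AAKO fasted livers stand above all others for Igfbp1 (9.49 to 9.62) and Igfbp3 (3.65 to 4.05), and CL316243 livers are low for Igfbp7.

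Igfbp3, the carrier cut by PAPPA2, was highest in fasted AAKO livers, which overlapped no other group. Its main probe lies at chr11:7106193-7106252 (mm9, minus strand). AAKO fasted livers had log2 levels of 3.91, 4.05, 3.99, 3.68, 3.76 and 3.65. CTRL fasted livers had 2.61, 3.39, 2.29, 2.86, 2.66 and 2.73, of which the highest is replicate 2. The genotypes did not overlap, and no CTRL fed (2.10 to 2.63), AAKO fed (2.19 to 2.57), CTRL CL316243 (1.98 to 2.32) or AAKO CL316243 liver (2.14 to 2.32) came near the AAKO fasted range.

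When fasted, AAKO livers had 2.12-fold more Igfbp3 than CTRL livers (1.08 ± 0.12, SE, n = 6 each; limma adjusted p 4.67e-09), and 1.20 on the log2 scale without CTRL fasted replicate 2. Fed livers differed by 0.02 ± 0.12 (adjusted p 0.991) and CL316243 livers by 0.11 ± 0.12 (adjusted p 0.546). The genotype-by-fasting interaction was 1.07 ± 0.17 (adjusted p 8.15e-06), and that of fasting against CL316243 0.97 ± 0.17 (adjusted p 3.36e-05). Within wash batch 2 they were 0.71 (adjusted p 0.0862) and 0.79 (adjusted p 0.0725). Fasting raised Igfbp3 by 1.43 ± 0.12 in AAKO (adjusted p 3.6e-12) and by 0.36 ± 0.12 in CTRL (adjusted p 0.0127). The CTRL rise was lost without CTRL fasted replicate 2 (0.24, adjusted p 0.0613) and within wash batch 1 (0.17, adjusted p 0.418). Against CL316243, fasted livers were higher by 0.61 ± 0.12 in CTRL (adjusted p 9.8e-05) and by 1.58 ± 0.12 in AAKO (adjusted p 5.9e-13). The other Igfbp3 probe was above background on 2 arrays, both AAKO fasted, and gave no fold. Igfbp3 in liver is known to come largely from cells other than hepatocytes. In bulk tissue a change in the number of such cells and in their RNA per cell cannot be told apart. Of 8 markers of the sinusoidal endothelium, 2 were higher and 0 lower in AAKO than in CTRL fasted livers, with a median log2 difference of 0.30. In that comparison 49.3% of all genes were called in either direction. Of 8 stellate cell and fibroblast markers, 3 were higher and 0 lower (median -0.10). Of 6 markers of Kupffer cells 0 were called (median 0.14). Of 4 neutrophil markers, 3 were higher and 0 lower (median 3.49). The same count was higher in AAKO fasted than in AAKO fed (median 3.39) and AAKO CL316243 livers (median 2.72). There 63.5% and 59.9% of all genes were called. The mean of these 4 ran from 0.01 to 2.87 over AAKO fasted and from -3.25 to 2.51 over CTRL fasted livers. Its highest CTRL fasted value, 2.51, was in replicate 2, which also had the highest Igfbp3 of that group. The part of any of these cell types in the Igfbp3 difference was not tested.

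Igfbp7, a low-affinity member of the family found in vessel walls, fell with CL316243 in both genotypes and was higher in fasted AAKO than in fasted CTRL livers. Its probe lies at chr5:77778355-77778414 (mm9, minus strand). CTRL fed livers had log2 levels of 5.39, 4.71, 5.00, 5.04, 5.12 and 5.38. CTRL CL316243 livers had 4.26, 4.28, 4.77, 4.19, 3.74 and 4.43, which overlapped the fed only through replicate 3. In AAKO mice the fed livers lay between 5.11 and 5.25 and the CL316243 livers, with 4.53, 4.18, 3.95, 4.22, 4.70 and 4.80, all below them. CTRL fasted livers ranged from 4.79 to 5.38 (mean 4.99 ± 0.22, SD, n = 6). AAKO fasted livers had 5.95, 5.58, 5.32, 5.65, 5.91 and 5.19 (mean 5.60 ± 0.31), overlapping them at the lower end.

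CL316243 against feeding lowered Igfbp7 1.78-fold in CTRL (limma adjusted p 7.25e-05) and 1.7-fold in AAKO (adjusted p 0.000106). Within experiment 1, fasted livers were above CL316243 livers by 0.72 ± 0.14 in CTRL (adjusted p 0.000166) and 1.17 ± 0.14 in AAKO (adjusted p 2.32e-08). The genotype difference in fasted livers was 0.61 ± 0.14 (adjusted p 0.00071). Fasting raised Igfbp7 in AAKO by 0.40 ± 0.14 (adjusted p 0.0153), a call lost within wash batch 1 (0.20, adjusted p 0.337) and with slide as a factor (0.34, adjusted p 0.0571), and differed in CTRL by -0.12 ± 0.14 (adjusted p 0.557). The genotype-by-fasting interaction of 0.52 ± 0.20 lay at the threshold (adjusted p 0.0478). It was lost within wash batch 1 (0.22, adjusted p 0.562), and leaving out single arrays lost it in 19 cases (largest adjusted p 0.0912).

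Markers of sinusoidal endothelial cells moved with Igfbp7 in some of these comparisons and not in others. With CL316243 against feeding, 7 of 8 markers fell and 0 rose in CTRL (median -0.80), and 4 fell and 0 rose in AAKO (median -0.46). Fasted against CL316243 livers, 6 were higher in CTRL and 5 in AAKO, with 0 lower in either. The mean level of the 8 markers ran from 1.25 to 1.79 over CTRL fed, 0.86 to 1.79 over CTRL fasted and 0.26 to 1.21 over CTRL CL316243 livers. In AAKO livers it ran from 1.62 to 1.76 when fed, 1.58 to 2.01 when fasted and 0.82 to 1.40 after CL316243. Between fasted genotypes 2 were higher and 0 lower, as given for Igfbp3. In AAKO fasted against fed livers, where Igfbp7 rose, 2 were higher and 3 lower (median -0.15). In AAKO against CTRL livers after CL316243, 3 were higher while Igfbp7 was not called (0.15 ± 0.14, limma adjusted p 0.492). Beside these counts, 23.3% of all genes in CTRL and 31.4% in AAKO were called, in either direction, for CL316243 against feeding. The shares were 36.8% and 59.9% for fasting against CL316243, and 43.3% and 63.5% for fasting against feeding. Between genotypes they were 49.3% when fasted and 24.7% after CL316243.

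Markers of Kupffer cells, the resident macrophages, also fell with CL316243 against feeding, 4 of 6 in CTRL (median -0.89) and 5 of 6 in AAKO (median -1.22), with 0 higher. Fasted against CL316243 livers, 0 of 6 were called by limma in either genotype (medians 0.27 and 0.30). Fasted against fed livers, 2 were lower in CTRL and 3 in AAKO, where Igfbp7 rose. Their mean ran from 0.87 to 2.27 in CTRL fed, -0.43 to 1.39 in CTRL CL316243, 1.77 to 2.40 in AAKO fed and 0.66 to 1.32 in AAKO CL316243 livers. The shares of all genes called that stand beside the endothelial counts apply to these comparisons too. All markers of both lists were measured in each group, and the part of either cell type in the Igfbp7 differences was not tested.

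**Figure D2:**
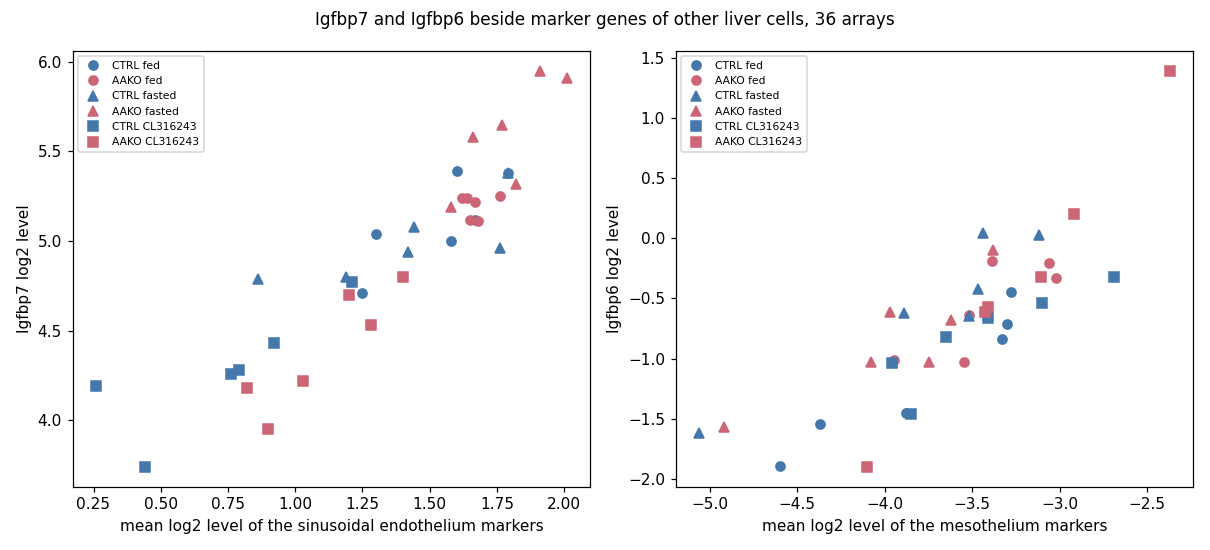
Left, Igfbp7 log2 level (vertical) against the mean log2 level of 8 sinusoidal endothelium markers (horizontal) in 36 livers; right, Igfbp6 against the mean of 4 mesothelium markers. Circles are fed, triangles fasted and squares CL316243 livers, blue CTRL and red AAKO; CL316243 livers are low on both axes of the left panel, and AAKO CL316243 replicate 6 is highest on both axes of the right one.

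Igfbp2, a hepatocyte-derived carrier, rose with fasting in CTRL livers. Its probe lies at chr1:72898677-72898736 (mm9). CTRL fed livers had log2 levels of 5.87, 6.65, 6.06, 5.63, 6.12 and 5.81, and CTRL fasted livers 6.88, 6.64, 6.53, 6.78, 6.66 and 6.81. The groups touched only through fed replicate 2. The difference was 0.70 ± 0.17 (limma adjusted p 0.00111), lost within wash batch 1 (0.56, adjusted p 0.171). Against CTRL CL316243 livers (5.23 to 6.24), CTRL fasted livers were higher by 0.91 ± 0.17 without overlap (adjusted p 6.66e-05). In AAKO livers fasting gave 0.24 ± 0.17 (adjusted p 0.232), and fasting against CL316243 0.37 ± 0.17 (adjusted p 0.0588). The latter was called without AAKO fasted replicate 4 (0.42, adjusted p 0.0421), under normexp correction (0.42, adjusted p 0.0287), quantile normalization (0.47, adjusted p 0.0276), in the authors' deposited table (0.55, adjusted p 0.00872), with only the compared groups (0.38, adjusted p 0.00683) and with slide as a factor (0.44, adjusted p 0.0385). The former was called in the authors' deposited table (0.41, adjusted p 0.0463). The difference between the genotypes in these responses missed the threshold (-0.46 ± 0.24, adjusted p 0.141, and -0.54 ± 0.24, adjusted p 0.0874).

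Igfbp4, the carrier cut by PAPPA, had small differences. Its probe 1, at chr11:98913334-98913393 (mm9), ran from 3.75 to 4.14 in CTRL fed and from 3.23 to 3.83 in CTRL fasted livers. AAKO fed livers ran from 3.48 to 4.22 and AAKO fasted livers from 3.48 to 3.63. Fasting gave -0.29 ± 0.10 in CTRL (limma adjusted p 0.0173) and -0.38 ± 0.10 in AAKO (adjusted p 0.00154), and CL316243 -0.33 ± 0.10 in CTRL (adjusted p 0.0174). All these ranges overlapped. The CTRL calls were lost with quantile normalization (-0.16 and -0.26), in the authors' deposited table (-0.17 and -0.29), and without CTRL fed replicate 2 (-0.25, adjusted p 0.0554, and -0.28, adjusted p 0.0539). Without CTRL fasted replicate 2 the fasting difference in CTRL was -0.21 (adjusted p 0.0769). The AAKO call was lost in the authors' deposited table (-0.23, adjusted p 0.0677) and within wash batch 1 (-0.29, adjusted p 0.137). Probe 2, at chr11:98909591-98909650, gave -0.17 and -0.34 for fasting in CTRL and AAKO, and 0.11 for CL316243 in CTRL, where the probes disagreed in sign. Fasted against CL316243 livers, with every probe tested, probe 1 gave 0.03 in CTRL and -0.18 in AAKO (limma adjusted p 0.845 and 0.122). Probe 2 gave -0.28 and -0.37 there (adjusted p 0.018 and 0.00116).

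Igfbp5, the other carrier cut by PAPPA2, fell with fasting in AAKO livers. It lies beside Igfbp2 on chromosome 1, on the opposite strand, with its probe at chr1:72904829-72904888 (mm9), 6.1 kb away. AAKO fed livers had log2 levels of -0.93, -1.58, -1.28, -0.98, -2.29 and -1.33, and AAKO fasted livers -3.03, -2.57, -2.80, -2.35, -2.42 and -2.66, all lower. The difference was -1.24 ± 0.34 (limma adjusted p 0.00223), and within wash batch 1 -1.16 (adjusted p 0.0968). AAKO CL316243 livers spread from -3.01 to -0.50. The difference of fasted from these was -0.97 ± 0.35 (adjusted p 0.0167), a call lost without AAKO CL316243 replicate 6 (-0.73, adjusted p 0.0636) or 4 (-0.77, adjusted p 0.0646), within wash batch 1 (-0.74, adjusted p 0.258) and with slide as a factor (-0.83, adjusted p 0.0566). In CTRL livers fasting gave -0.63 ± 0.34 (adjusted p 0.144; -0.84 and 0.0491 without CTRL fasted replicate 5), with fed values from -2.06 to -1.23 and fasted values from -3.23 to -1.22. The genotypes' fasting responses differed by -0.61 ± 0.49 (adjusted p 0.359). Probe 2 of Igfbp5 was well above background on 15 of 36 arrays and was not tested.

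Igfbp6, a carrier with a preference for IGF-II, was called in no comparison. Its probe lies at chr15:101979852-101979911 (mm9). The largest difference, the genotype-by-fasting interaction, was -0.88 ± 0.51 (limma adjusted p 0.191). Fasted against CL316243 livers of AAKO mice differed by -0.53 ± 0.36 (adjusted p 0.21), and without AAKO CL316243 replicate 1 by -0.85 (adjusted p 0.0281). Levels ran from -1.89 to -0.45 in CTRL fed, -1.62 to 0.04 in CTRL fasted, -1.46 to -0.32 in CTRL CL316243, -1.03 to -0.19 in AAKO fed and -1.57 to -0.10 in AAKO fasted livers. AAKO CL316243 livers spread widest, from -1.90 in replicate 1 to 1.39 in replicate 6. The mean of 4 mesothelium markers was also lowest and highest of that group in these livers, -4.10 and -2.37. Replicate 6 was highest of the group for the stellate cell and fibroblast (0.62), adipocyte (-2.72) and sinusoidal endothelium markers (1.40) as well. The same held for the Kupffer cell (1.32) and neutrophil markers (-0.03), but not for the hepatocyte and cholangiocyte markers. None of these other lists was lowest in replicate 1. Over 36 arrays the centred profile closest to that of Igfbp6 was that of Msln, itself among the mesothelium markers (root mean square difference 0.25). Upk1b (0.33) and Aebp1 (0.41) followed. The SD of Igfbp6 was 0.65, under the limit of 1 set for naming such genes. These genes were named after their values were seen, and the part of mesothelial or other cells in Igfbp6 was not tested.

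Pappa2, which releases IGF from IGFBP3 and IGFBP5, was bright in fasted AAKO livers and at or near background in CTRL livers. By probe 1, AAKO fasted livers had log2 levels of 0.95, 0.08, 0.01, -0.02, -0.03 and -0.55, all 6 well above background. CTRL fasted livers had -6.59, -6.46, -7.86, -5.59, -6.29 and -7.31, none of them well above background. CTRL fasted replicate 2, the highest of its group for Igfbp1 and Igfbp3, was at -6.46 here and, like the others, without a measured level. The lowest signal well above background lay between -6.00 and -5.36 over the arrays. Measured against it, in the main values of probe 1, AAKO fasted livers were at least 58.5-fold brighter than CTRL fasted livers. That bound sets the bright group's mean against, per array, the higher of the dim signal and that lowest signal. It holds for this background treatment only, and smaller differences under others are given below.

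Other AAKO livers had intermediate Pappa2 signals. AAKO fed livers had -4.11, -5.54, -4.49, -6.25, -5.18 and -4.19, with 4 of 6 well above background. AAKO CL316243 livers had -6.62, -4.24, -4.24, -2.86, -4.81 and -4.53, with 5 of 6. In CTRL livers 1 of 6 was well above background when fed and 0 of 6 after CL316243 (-7.73, -7.69, -5.62, -6.17, -7.00 and -7.57). AAKO fasted values were thus all above those of every other group, by 5.03 on the log2 scale over AAKO fed and by 4.50 over AAKO CL316243. The genotype-by-fasting contrast was 5.38 and that of fasting against CL316243 4.22. After CL316243, AAKO livers were, by the same bound in the main values, at least 2.18-fold brighter than CTRL livers. The difference was 2.54 on the log2 scale, although AAKO replicate 1 lay among the CTRL livers. That difference was 1.90 and 3.42 within wash batches 1 and 2. Between fed genotypes the difference was 1.37, with overlapping groups.

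The size of these values depended on the background treatment, since the dim groups had no measured level. With normexp background correction and in the authors' deposited table, the fasted genotype difference was 2.66 and 3.97 in place of 6.75. The CL316243 difference was 0.35 and 0.65 in place of 2.54. Probe 2 was well above background on 5 arrays, all AAKO fasted, with -4.44, -4.87, -4.67, -5.25, -4.47 and -5.72 over the 6. Its fasted genotype bound was at least 1.89-fold, and its genotype-by-fasting contrast 3.46. Probes 3 and 4 were above background on 0 of 36 arrays, so the signal was seen with the probes to 1 of the 2 transcripts. The tested genes whose centred values over 36 arrays came closest to Pappa2 were Scin (root mean square difference 1.21), Gm15743 (1.36) and Pcsk1 (1.36), against an SD of Pappa2 of 2.55. For Igfbp1, with an SD of 2.39, they were an unnamed locus of chromosome 6 (1.03), Zdhhc25 (1.14) and Ntf5 (1.15).

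**Figure D3:**
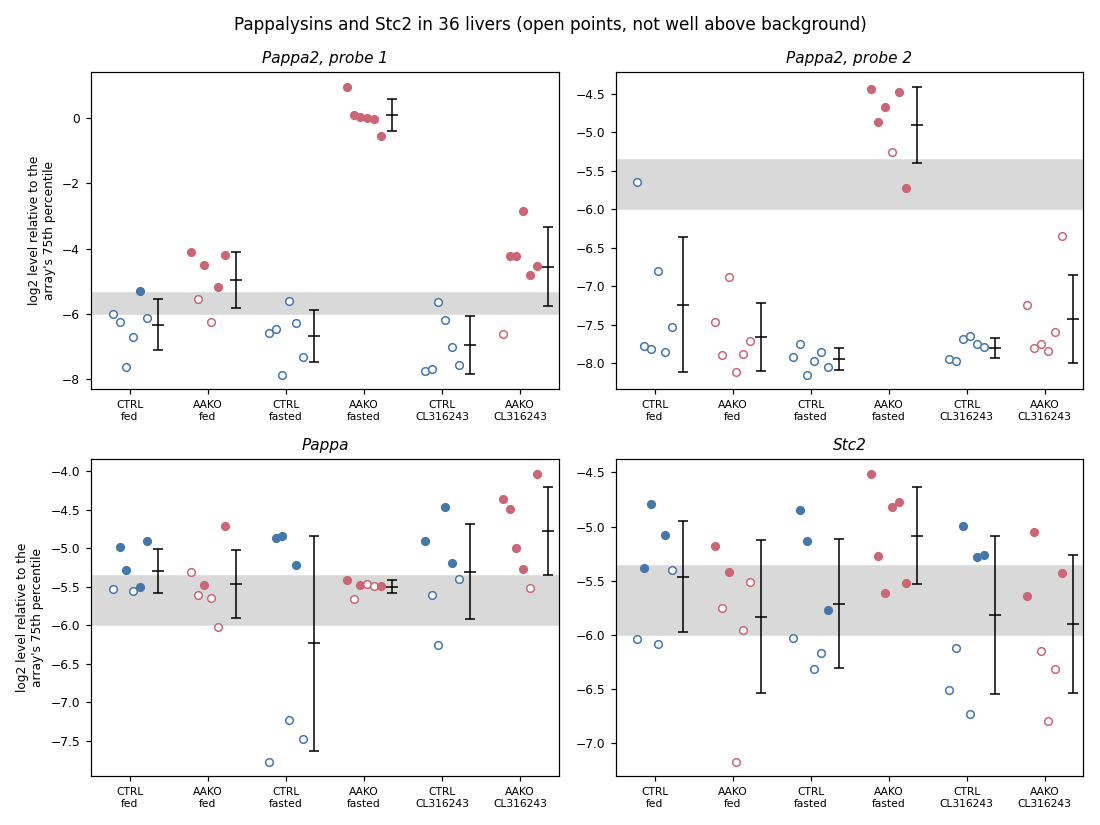
Log2 level (vertical axis, over the array's 75th percentile) of Pappa2 by its probes 1 and 2, of Pappa and of Stc2 in each liver by group, with mean and SD of 6 livers; each panel has its own scale. Open points were not well above background and the grey band, -6.00 to -5.36, spans the lowest signal well above background over the arrays; for Pappa2 probe 1 the AAKO fasted livers lie between -0.55 and 0.95.

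Pappa, the protease of IGFBP4, lay at the edge of detection. Its probe, at chr4:65012905-65012964 (mm9), was well above background on 20 of 36 arrays, and its levels ran from -7.77 to -4.03. AAKO CL316243 livers had -4.36, -4.49, -4.99, -5.27, -5.51 and -4.03, with 5 of 6 above background. No comparison was called. The fasting difference in CTRL was -0.94 ± 0.39 (limma adjusted p 0.052), and CTRL fasted livers fell into 3 near -5 (-4.87, -4.84 and -5.21) and 3 below background (-7.77, -7.23 and -7.48). It passed the threshold without CTRL fasted replicate 2 (-1.24, adjusted p 0.00856), 3 (-1.21, adjusted p 0.012) or 5 (-1.13, adjusted p 0.0226). Without replicate 2 or 3 the fasted genotype difference also passed (1.04 and 1.00, adjusted p 0.0221 and 0.0337). With all arrays it was 0.73 ± 0.39 (adjusted p 0.124), and under normexp correction -0.02 (adjusted p 0.823). The 3 CTRL fasted livers below background had no measured level, so the size of these differences depends on the background treatment.

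Stc2, the pappalysin inhibitor, was similarly dim, with its probe at chr11:31260136-31260195 (mm9, minus strand). AAKO fasted livers had log2 levels of -4.51, -5.27, -5.61, -4.82, -4.77 and -5.52, all 6 well above background. In each other group 2 or 3 of 6 were, and the ranges overlapped. No comparison was called. AAKO fasted livers differed by 0.63 from CTRL fasted, 0.75 from AAKO fed and 0.78 from AAKO CL316243 livers. Because Stc2 was kept only through the AAKO fasted group, these are given as values without a test. Under normexp correction the last pair were -0.04 and -0.09. Stc1, the related inhibitor, was above background on no array.

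Of the direct partners of these proteins, Igfals was lower and Igf1r higher in fasted AAKO than in fasted CTRL livers. Igf1, the liver-made ligand, had group means between 6.98 ± 0.12 in CTRL CL316243 and 7.27 ± 0.08 in AAKO fasted livers (SD, n = 6). Fasting raised it by 0.16 ± 0.06 in CTRL (SE; limma adjusted p 0.0399) and 0.25 ± 0.06 in AAKO (adjusted p 0.000872). The fasted genotypes differed by 0.12 ± 0.06 (adjusted p 0.127).

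Igfals, the third part of the circulating complex, ran from 1.28 to 2.01 in CTRL fed and from 1.35 to 1.92 in AAKO fed livers. Fasted CTRL livers lay between -0.24 and 0.90 and fasted AAKO livers between -0.93 and -0.25, without overlap. The fasted genotype difference was -1.17 ± 0.18 (adjusted p 2.78e-06) and the genotype-by-fasting interaction -1.16 ± 0.26 (adjusted p 0.000649). After CL316243 Igfals was lower in AAKO (-0.20 to 0.89) than in CTRL livers (0.94 to 1.78). The difference was -0.89 ± 0.18 (adjusted p 0.000406), with an interaction of -0.89 ± 0.26 (adjusted p 0.0213).

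Igf1r, the IGF receptor, was higher in AAKO fasted livers (-1.52 to -1.02) than in CTRL fasted livers (-2.75 to -2.17). The difference was 1.28 ± 0.12 (adjusted p 1.56e-10) and the genotype-by-fasting interaction 1.14 ± 0.16 (adjusted p 2.53e-06). With CL316243 it fell by 0.52 ± 0.12 in CTRL (adjusted p 0.00133). After CL316243 Igf1r was also higher in AAKO than in CTRL livers, by 0.36 ± 0.12 with overlapping groups (limma adjusted p 0.0228). Igf2, the ligand known for fetal expression, did not pass the filter.

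**Figure D4:**
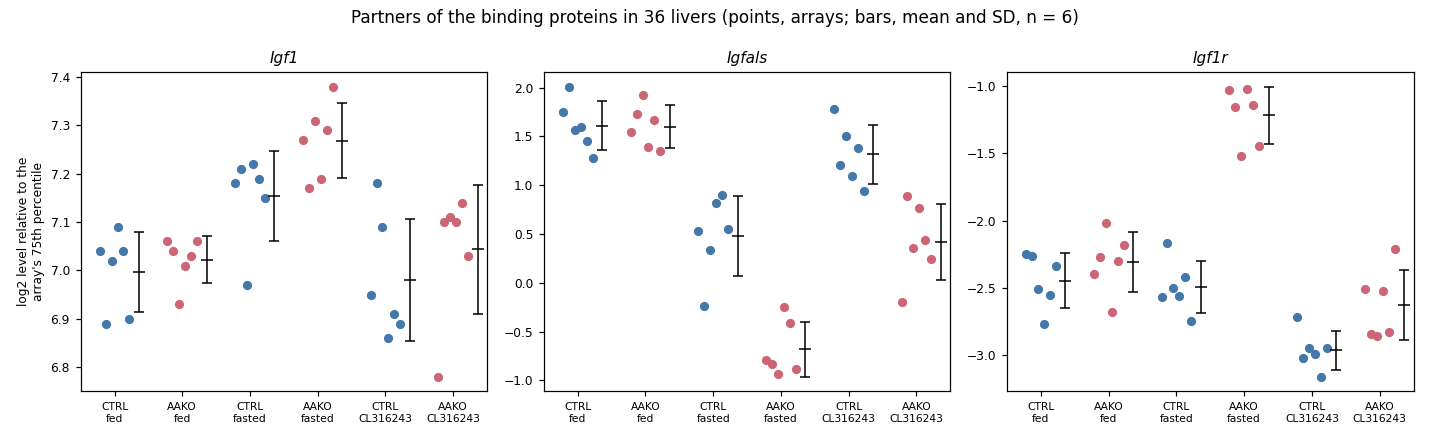
Log2 level (vertical axis, over the array's 75th percentile) of Igf1, Igfals and Igf1r in each liver by group (blue, CTRL; red, AAKO), with mean and SD of 6 livers; each panel has its own scale. AAKO fasted livers are lowest for Igfals (-0.93 to -0.25) and highest for Igf1r (-1.52 to -1.02), while the group means of Igf1 lie between 6.98 and 7.27.

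Counts are given over the 9 genes other than Pappa2, beside the share of all 24251 genes called, and read as descriptions, since the genes were chosen with results known. Between fed genotypes 0 of 9 were called, against 0.0783% of all genes (1644 of all at an unadjusted p under 0.05). Between fasted genotypes 3 were called, all higher in AAKO (Igfbp1, Igfbp3 and Igfbp7), against 49.3%. After CL316243 only Igfbp1 was called, higher in AAKO, against 24.7%.

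Fasting in CTRL called 4 of the 9 genes, 3 higher and 1 lower, against 43.3%, and in AAKO 5, 3 higher and 2 lower, against 63.5%. CL316243 against feeding called 3 in CTRL, 1 higher and 2 lower, against 23.3%, and 2 in AAKO, 1 in each direction, against 31.4%. Fasted against CL316243 livers, 4 were called in CTRL, all higher, against 36.8%, and 4 in AAKO, 3 higher and 1 lower, against 59.9%. The genotype-by-fasting interaction was called for Igfbp3 and Igfbp7, 2 of 9, against 33.9%. That of genotype and CL316243 was called by limma for 0, against 10.9% (5622 of all genes at an unadjusted p under 0.05). That of genotype and fasting against CL316243 was called for 1, Igfbp3, against 32.3%. Over the 12 comparisons the median log2 difference of the 9 genes ran from -0.25 (CL316243 against feeding, CTRL) to 0.61 (fasted genotypes), and that of all genes from -0.09 to 0.03.

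**Figure D5:**
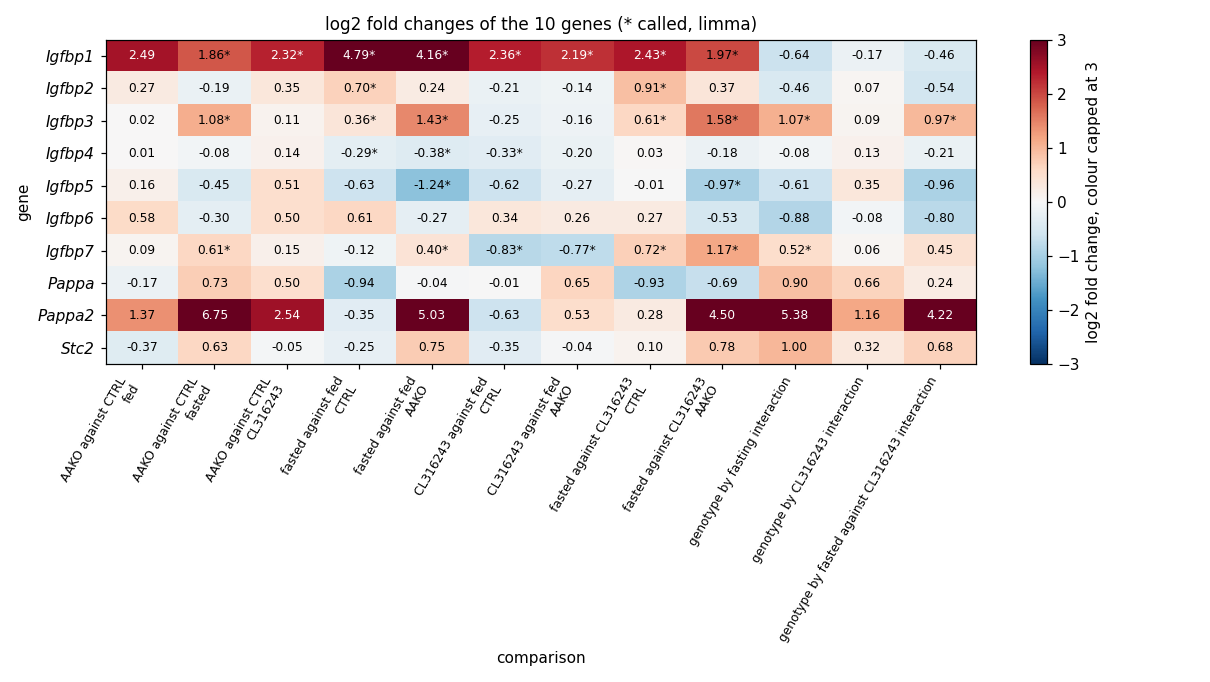
Log2 fold changes of the 10 genes (rows) in 12 comparisons (columns, first group minus second, or the difference of genotype differences for interactions), coloured from blue (lower) to red (higher) with the colour capped at 3. Asterisks mark calls at a limma adjusted p under 0.05, and Pappa2 carries none because it was described without a test; Igfbp1 is red in all 9 pairwise comparisons.

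Of 17 other genes of the IGF system (ligands, receptors, other binding and cleaving proteins, growth hormone signalling and insulin receptor substrates), 15 were tested, all but Igf2 and Stc1. Between genotypes 0 were called when fed, against 0.0783% of all genes (1644 of all at an unadjusted p under 0.05 in limma). When fasted 5 were higher and 3 lower in AAKO, against 49.3%, and after CL316243 4 were higher and 3 lower, against 24.7%. Fasting called 4 higher and 4 lower in CTRL, against 43.3%, and 9 higher and 4 lower in AAKO, against 63.5%. CL316243 against feeding called 3 higher and 1 lower in CTRL, against 23.3%, and 3 higher and 3 lower in AAKO, against 31.4%. Fasted against CL316243 livers, 3 were higher and 4 lower in CTRL, against 36.8%, and 8 higher and 4 lower in AAKO, against 59.9%. The genotype-by-fasting interaction was called for 4, of which 2 were higher, against 33.9%. That with CL316243 was called for 2, both lower, against 10.9%, and that with fasting against CL316243 for 6, of which 5 were higher, against 32.3%.

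Of these genes, Igf2r, Socs2 and Htra1 had the largest differences between fasted genotypes and were named after their values were seen. Igf2r, the receptor that takes up IGF-II for degradation, was lower in AAKO (mean -0.49) than in CTRL fasted livers (1.40), opposite to Igf1r, by a difference of -1.88 ± 0.13 (limma adjusted p 6.36e-13). Its genotype-by-fasting interaction was -1.78 ± 0.18 (adjusted p 1.42e-08). Socs2, an inhibitor of growth hormone signalling, was higher by 2.23 ± 0.54 (adjusted p 0.000941), and its interaction of 1.35 ± 0.77 missed the threshold (adjusted p 0.181). Htra1, a secreted protease, was higher by 1.37 ± 0.21 (adjusted p 2.12e-06), with an interaction of 1.24 ± 0.30 (adjusted p 0.00133). After CL316243 the genotypes also differed for Igf2r (-0.37 ± 0.13, limma adjusted p 0.0371) and Socs2 (1.70 ± 0.55, adjusted p 0.0212). Htra1 was not called there (-0.08 ± 0.21, adjusted p 0.821).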

How the data were processed

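Agilent 1-colour arrays were read for 36 livers. Per the file headers, Agilent Feature Extraction 10.10.1.1 had made the spot intensity values, with background subtracted and a trend within the array removed. No scaling between arrays was recorded. The authors also deposited log2 values of 36898 probes, whose 36 columns matched their own arrays best (r 0.99957 to 0.99981). The normalization of that table is not given in the sources used here, and limma is listed in the submitters' processing notes. The deposited 0 or 1 marks of the files gave signal well above background.

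Main values were log2 of processed intensity minus that of the 75th percentile of the array. Of 59305 spots other than controls, outlying ones were left out (0.127%), none was saturated, and spots of a probe were averaged. Probes were named through RefSeq accessions where these matched (32994 of 56605), and the probe with the highest mean stood for its gene. Genes were tested if well above background on 5 of 6 arrays of a group.

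limma 3.58.1 in R 4.3.3 fitted 6 group means with wash batch to all 36 arrays; p-values were Benjamini-Hochberg adjusted over 24251 genes, two-sided, with calls at an adjusted p under 0.05. The fit was tested on simulated data. The genes and lists were chosen with earlier results of these data known. All 10 genes are named, with Igf1, Igf2, Igfals, Igf1r and Stc1, and the 3 genes most like any member with an SD of at least 1. Those of Igfbp6, whose SD was below 1, were added after their values were seen.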

Additional observations from a re-analysis of the deposited data

Results flagged for a closer look

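Over 60 combinations of gene and group, 3 single livers stood apart from the other 5 of their group by Dixon's criterion; chance gives about 1 in 20. CTRL CL316243 replicate 3 had the lowest Igfbp1 of its group, 3.35, with the next at 5.33. CTRL CL316243 replicate 1 had the highest Igfbp4, 3.86, with the next at 3.59. AAKO fasted replicate 2 had the lowest Pappa, -5.66, with the next at -5.49, in a group whose other values end at -5.41 near background.

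The response of the genotypes to a condition differed, by the interaction term of the limma fit, for Igfbp3 with fasting against feeding (1.07), for Igfbp3 with fasting against CL316243 (0.97) and for Igfbp7 with fasting against feeding (0.52, at the threshold).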

How the results depend on the processing

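Without Pappa2, 29 values were called. They kept their direction in all 377 recalculations with another setting and all 384 without single arrays, and lost the call in 35 and 25 of them. Dropping the filter on dim probes, raising it to all 6 arrays of a group and testing every probe separately refitted the same values. Under these settings the direction could not change. Fits of only the compared groups, without the wash batch term, with slide as a random block or with a replicate block also used the same values. They differed only in the terms of the fit, so a change of direction was little open there too. Changes within single wash batches are given here. The counts for batch 1 cover all 10 genes and so include Pappa2 where it passed the threshold. Within wash batch 1 calls fell from 2 to 1 (genotypes after CL316243) and 4 to 1 (fasting, CTRL). They also fell from 6 to 3 (fasting, AAKO), 3 to 1 (CL316243, CTRL) and 5 to 3 (AAKO fasted against CL316243). Without Pappa2 the starting counts were 1 (genotypes after CL316243), 5 (fasting, AAKO) and 4 (AAKO fasted against CL316243). The 1 left between genotypes after CL316243 was Pappa2, so none of the other genes kept a call there. Within batch 2 Igfbp1 lost its call between genotypes when fasted and after CL316243, for CL316243 in AAKO and for AAKO fasted against CL316243. Igfbp4 lost it for fasting and for CL316243 in CTRL, and Igfbp3 in both of its called interactions. These fits have fewer arrays. With only the compared groups fitted, fasting in CTRL called 2 of all 10 genes in place of 4. AAKO fasted against CL316243 called 9 of 10 in place of 5, and both of these counts include Pappa2. The 9 also include Stc2 (0.81) and Pappa (-0.69), each kept by the filter through only 1 of the compared groups. The share of all genes called in this fit is not given, so the count is not read further. The cause was not tested. Leaving out single arrays gave 0 to 1 calls between fed genotypes (1 without CTRL fed replicate 2 or AAKO fed replicate 4, in each case Igfbp1). Without CTRL fasted replicate 2, the interaction of genotype and fasting against CL316243 was also called by limma for Igfbp5 (-1.19, adjusted p 0.0485). The same held for Igfbp7 (0.52, adjusted p 0.0482).

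Signs turned, with no call, under normexp correction for Pappa between fasted genotypes (-0.02) and in its fasting interaction (-0.01), and for Stc2 in AAKO fasted against fed (-0.04) and CL316243 livers (-0.09). Igfbp7's interaction of genotype and fasting against CL316243, 0.45 in the main fit (limma adjusted p 0.0866), turned to -0.02 within wash batch 1. It was called within wash batch 2 (1.15, adjusted p 0.00972) and in the authors' deposited table (0.56, adjusted p 0.0401). The cause of these changes was not tested. Values called under no setting numbered 66, with 105 changes of sign in their 1896 recalculations.

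Replicate numbers did not pair the arrays: over 90 same-numbered pairs the median correlation of deviations was 0.00283. With the number as a replicate block the Igfbp7 fasting interaction was 0.52 (adjusted p 0.0704). Signal near background limits Pappa and Stc2 in all groups, and Pappa2 outside fasted AAKO livers.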
